A study of Chlorocebus sabaeus with 6 samples.

Results

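The 35 genes described here encode proteins that hold the endoplasmic reticulum (ER) close to other membranes or carry lipids across the gap. They were chosen by name from the 18050 genes of the deposited table: VAP and MOSPD genes, OSBP and its relatives (ORP genes), extended synaptotagmins and related SMP proteins, GRAMD genes, VPS13 genes, mitochondrial and peroxisomal contact genes, and START and PITP transfer proteins. Of 37 names listed, 35 matched a gene symbol of the table. CERT1 and TMEM24 stand there under the other symbols COL4A3BP and C2CD2L and are given apart from the counts. RNA was measured by mRNA sequencing in COS7, an SV40-immortalised, fibroblast-like kidney line of Chlorocebus sabaeus, the African green monkey. The 2 groups were 3 wild-type samples (WT1, WT2 and WT3) and 3 double knockout samples that lack ATL2 and ATL3 by genotype (DKO1, DKO2 and DKO3), all grown in DMEM with fetal bovine serum and antibiotics. The labels do not say how the knockout was made, how many clones it represents or whether samples of a group were separate cultures, and the spread behind each p-value is that of these 6 samples and may be technical only.

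ATL2 and ATL3 encode atlastins, GTPases that fuse ER tubules into a network. At contact sites, the ER proteins VAPA and VAPB bind short FFAT motifs of partner proteins on other membranes. The ORP, START and PITP proteins then carry single lipids such as cholesterol, ceramide or phosphatidylinositol 4-phosphate (PI4P) between the membranes, and VPS13 proteins are long bridges along which bulk lipid can flow. The comparison asks how transcript levels of this machinery differ between COS7 cells with and without the 2 atlastins. In samples of whole cultures, fewer cells that express a gene and less RNA per cell cannot be told apart.

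The libraries held 14197344 to 15693049 estimated counts. Both targeted mRNAs were lower in every DKO sample: ATL2 had 29.2 to 32.2 FPKM (fragments scaled to transcript length and library size) in WT and 3.78 to 7.38 in DKO, and ATL3 34.7 to 37.3 and 3.5 to 5.93. Of 13094 genes tested with edgeR's quasi-likelihood test, 45.5% had a Benjamini-Hochberg adjusted p below 0.05 and are referred to as called, 23.3% with higher and 22.2% with lower levels in DKO. DKO3 stood apart from its group. Over all tested genes it differed from the mean of DKO1 and DKO2 by a median of 0.45 in size on the log2 scale, against 0.07 between DKO1 and DKO2. Of 8 markers of fibroblasts and mesenchyme, 4 reached 1 FPKM in WT and 5 in DKO. VIM was high in both groups (1511 to 1551 FPKM in WT and 1260 to 1356 in DKO), FN1 had 1783 to 1897 and 190 to 232, and COL1A2, COL3A1 and THY1 were at or near 0. Of the 5 tested genes of this list edgeR called 3 lower and 1 higher, PDGFRB, at 0.53 to 0.63 FPKM in WT and 4.65 to 6.13 in DKO. Of 6 epithelial markers 4 were called lower, among them CDH1 (4.78 to 4.93 and 0.07 to 0.1 FPKM), and EPCAM was called higher (11.9 to 13.5 and 21.7 to 38.6). The summed level of the 8 fibroblast and mesenchyme markers, which includes FN1, was 3360 to 3451 FPKM in WT and 1511 to 1562 in DKO. The kidney tubule markers summed to 117 to 124 FPKM in WT and 29.7 to 35.5 in DKO, the epithelial markers to 675 to 767 and 533 to 694, and endothelial and blood markers to at most 0.22 in any sample. The part of these differences in the results below was not tested.

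All 35 genes passed the filter on low counts, GRAMD1C only through its WT counts. Changes went in both directions, and 25 of the 35 genes were not called. MOSPD3, TEX2, GRAMD1B and PITPNM2 rose, and OSBPL6, OSBPL9, OSBPL11, GRAMD1C, GRAMD2B and ACBD5 fell. The called share was thus 28.6%, beside 45.5% of all tested genes, and 9 of 34 (26.5%) without GRAMD1C. The median log2 fold change (DKO over WT) was -0.03 over the 35 genes and -0.01 over all tested genes. The median size of the fold change was 0.35 and 0.47. The FPKM values of the groups did not overlap for 22 genes, 7 with DKO above and 15 with DKO below. This was 62.9% of the genes, and 63.2% of all tested genes did not overlap (29.1% above and 34.1% below). Without DKO3, edgeR called 31 of the 35 genes, 13 higher and 18 lower, beside a background of 74.6% (36% of all tested genes higher, 38.6% lower). These included the 10 genes called in all 6 samples, in the same direction, and OSBPL5, OSBPL8, PDZD8 and VPS13D were called in neither fit. Of the 35 genes, 6 were called without WT1, 7 without WT2, 6 without WT3, 9 without DKO1 and 10 without DKO2, beside 32.2%, 33%, 32.1%, 40.1% and 41.6% of all tested genes. DESeq2 called 3 genes higher and 9 lower (45.8% of all tested genes, 22.3% higher and 23.5% lower).

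**Figure D1:**
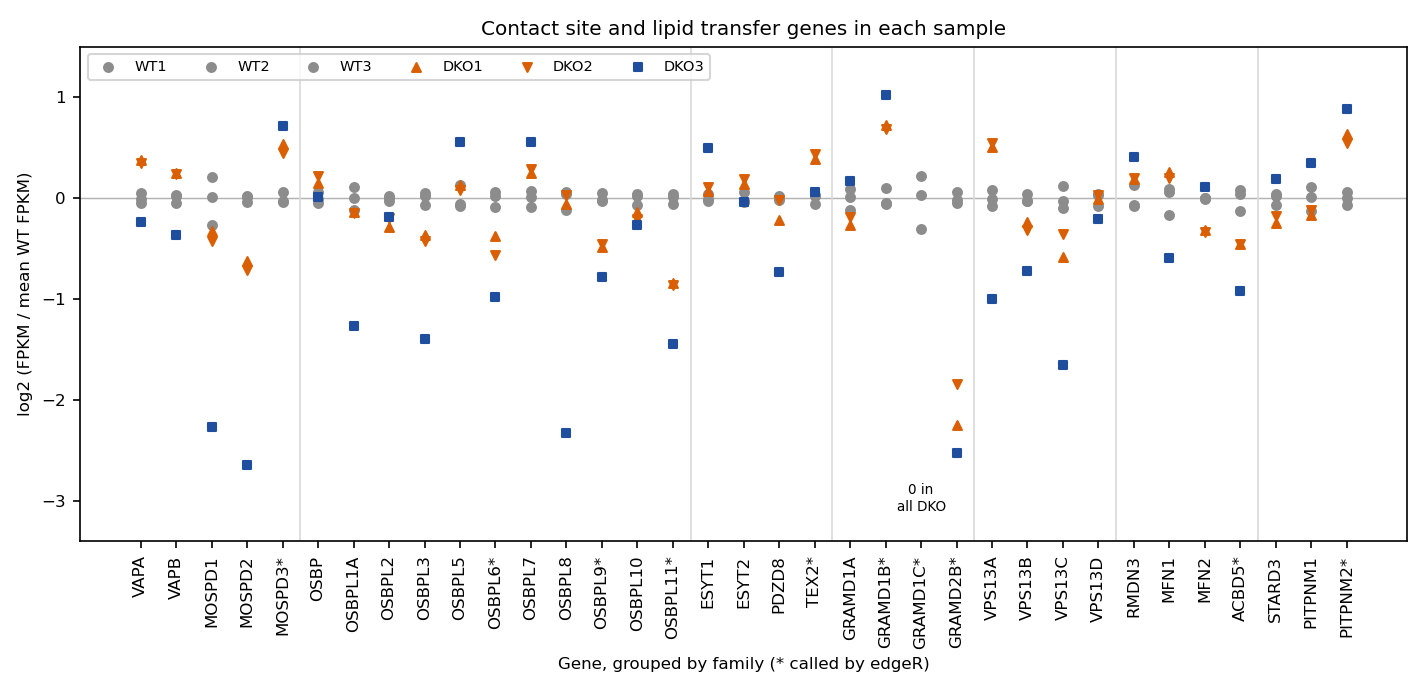
Each point is the FPKM value of 1 sample divided by the mean of the 3 WT samples, on a log2 axis, for the 35 genes grouped by family (grey circles WT, orange triangles DKO1 and DKO2, blue squares DKO3, asterisks for genes called by edgeR). DKO1 and DKO2 lie close together for most genes, while DKO3 lies apart from them, furthest for OSBPL8. Its distance there is -2.20 from the mean of DKO1 and DKO2 in log2 CPM, which is not the plotted axis. GRAMD1C has no DKO point because it is at 0 there.

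The main receptors for FFAT motifs were not called. VAPA (gene ID 103222768) was the most abundant of the 35 transcripts in WT, with 92.1, 94.95 and 98.7 FPKM in WT and 124, 122 and 80.7 in DKO. VAPB (103243598) had 60.2, 56.8 and 59.6 FPKM in WT and 70.2, 69.4 and 45.6 in DKO. For both genes DKO1 and DKO2 lay above all WT samples and DKO3 below them. On the log2 scale DKO was 0.22 (SE 0.14, edgeR adjusted p = 0.25) above WT for VAPA and 0.10 (SE 0.15, edgeR adjusted p = 0.6) for VAPB. Without DKO3 these changes were 0.36 and 0.25 and were called higher (edgeR adjusted p = 5.6e-09 and 1.3e-05).

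The MOSPD proteins share the motif-binding MSP domain with the VAPs. MOSPD3 (103246727) rose, from 34.5, 37.0 and 34.7 FPKM in WT to 51.3, 48.3 and 58.4 in DKO, with no overlap. It rose by 0.62 on the log2 scale with an SE of 0.14 (edgeR adjusted p = 0.01). It narrowly missed the threshold without WT1 or WT3 (0.60 in each case, edgeR adjusted p = 0.053 and 0.052). MOSPD2 (103231628), an ER protein that also binds FFAT motifs, had 11.5, 11.1 and 11.6 FPKM in WT and 7.39, 6.94 and 1.82 in DKO. All DKO samples were below WT, with DKO3 far below the other two, and the fold change of -1.05 (SE 0.44) was not called (edgeR adjusted p = 0.089). It was called without DKO3 (-0.65, edgeR adjusted p = 6.8e-10) and by DESeq2 (adjusted p = 0.019). MOSPD1, the least abundant of the 5 at 4.25 ± 0.686 FPKM in WT (SD, n = 3), showed the same arrangement, with 2.48 ± 1.39 in DKO (-0.76, SE 0.41, edgeR adjusted p = 0.17).

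Among the 11 genes of OSBP and its relatives, 3 fell and 0 rose. This was 27.3%, beside 45.5% of all tested genes called and 22.2% called lower. OSBPL11 (103228141) fell most, from 14.4, 13.7 and 14.6 FPKM in WT to 7.91, 7.81 and 5.21 in DKO (log2 fold change -1.0, SE 0.16, edgeR adjusted p = 0.0022). OSBPL9 (103225924), the most abundant ORP transcript in WT, fell from 43.5, 41.2 and 41.7 to 30.1, 30.8 and 24.4 FPKM (-0.53, SE 0.11, edgeR adjusted p = 0.0059). Their products ORP11 and ORP9 are known to pair and to exchange phosphatidylserine for PI4P between the ER and the trans-Golgi. Both genes kept their call in all 13 alternative fits. OSBPL10, whose product ORP10 is another partner of ORP9, had 9.19 ± 0.393 FPKM in WT and 7.98 ± 0.35 in DKO and was not called (-0.19, SE 0.11, edgeR adjusted p = 0.19). Without DKO3 it was called lower (-0.17, edgeR adjusted p = 0.034).

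OSBPL6 (103217413), of the ORP3 subfamily, fell from 4.80, 4.44 and 4.94 FPKM in WT to 3.65, 3.19 and 2.40 in DKO (-0.59, SE 0.16, edgeR adjusted p = 0.02). Every DKO sample was below every WT sample. The call was lost without WT1, WT2 or WT3 (edgeR adjusted p = 0.075, 0.053 and 0.081). The other genes of this subfamily were not called: OSBPL3 went from 13.2 ± 0.548 to 8.35 ± 2.9 FPKM (-0.63, SE 0.24), and OSBPL7 2.71 ± 0.146 and 3.51 ± 0.412 (0.43, SE 0.16). Their groups did not overlap, OSBPL3 below and OSBPL7 above WT, and their edgeR adjusted p-values were 0.066 and 0.059. DESeq2 called OSBPL3 lower (adjusted p = 0.029, beside 45.8% of all tested genes called). In the edgeR fit without DKO3, which called 74.6% of all tested genes, OSBPL3 was called lower (-0.40, adjusted p = 5.1e-08). OSBPL7 was called higher there (0.28, edgeR adjusted p = 0.03).

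The remaining ORP genes were not called with all 6 samples. Without DKO3, where 74.6% of all tested genes were called, OSBP was called higher and OSBPL1A and OSBPL2 lower. OSBP itself, which trades cholesterol for PI4P between ER and Golgi, had 19.3 to 20.8 FPKM in WT and 20.1 to 23.3 in DKO (0.17, SE 0.09, edgeR adjusted p = 0.19). OSBPL1A (103222619), whose product ORP1L sits on late endosomes and senses cholesterol, had 39.3, 33.5 and 36.3 FPKM in WT. It had 33.1, 32.9 and 15.1 in DKO (-0.38, SE 0.25, edgeR adjusted p = 0.26), so that DKO3 was far below all other samples. OSBPL2, with a product that moves cholesterol at the plasma membrane, had 17.4 ± 0.29 and 14.9 ± 0.519 FPKM (-0.17, SE 0.11). The ER-anchored pair OSBPL5 and OSBPL8, which carry phosphatidylserine to the plasma membrane, differed in their DKO3 values. OSBPL8 had 14.4 to 16.2 FPKM in WT and 15.0, 15.9 and 3.09 in DKO, and OSBPL5 4.89 to 5.64 in WT and 5.66, 5.47 and 7.58 in DKO. Neither was called with or without DKO3 (edgeR adjusted p = 0.51 and 0.98 for OSBPL8, and 0.21 and 0.34 for OSBPL5).

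The extended synaptotagmins tether the ER to the plasma membrane and transfer glycerolipids through their SMP domain. ESYT1 (103238507) had 46.6, 44.9 and 44.4 FPKM in WT and 47.6, 49.0 and 63.8 in DKO, and ESYT2 (103227320) 43.8, 41.2 and 41.1 in WT and 46.2, 48.1 and 41.0 in DKO. Neither was called (log2 fold changes 0.28 and 0.14, SE 0.15 and 0.09, edgeR adjusted p = 0.16 and 0.26). TEX2 (103243201), an SMP protein at contacts of the ER with endosomes and lysosomes, had 15.5, 14.6 and 15.6 FPKM in WT and 19.9, 20.7 and 16.0 in DKO. It was called higher (0.35 on the log2 scale, SE 0.11, edgeR adjusted p = 0.043), with DKO3 barely above the highest WT sample. This call held in only 1 of 13 alternative fits, that without DKO3. It was lost when any other library was left out (edgeR adjusted p = 0.13 without WT1, 0.17 without WT2, 0.13 without WT3, 0.13 without DKO1 and 0.14 without DKO2). PDZD8, an SMP protein of the ER that faces mitochondria and late endosomes, had 26.9 ± 0.356 and 21.9 ± 5.27 FPKM and was not called (-0.26, SE 0.16, edgeR adjusted p = 0.22).

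Of the 4 GRAMD genes, 1 rose and 2 fell (75%, beside 45.5% of all tested genes called). The 2 that fell include GRAMD1C, which passed the filter on low counts only through WT, so this share is given as a description. GRAMD1A, GRAMD1B and GRAMD1C encode the Aster proteins, which move accessible cholesterol from the plasma membrane to the ER. GRAMD1A (103234488) was the most abundant, with 30.5, 32.3 and 27.9 FPKM in WT and 25.2, 26.5 and 34.1 in DKO. Its groups overlapped and it was not called (-0.03, SE 0.17, edgeR adjusted p = 0.9), but without DKO3 it was called lower (-0.22, edgeR adjusted p = 0.0013). GRAMD1B (103248703) rose from 2.62, 2.35 and 2.36 to 4.04, 3.94 and 4.96 FPKM (0.84, SE 0.16, edgeR adjusted p = 0.0044), and every DKO sample exceeded every WT sample. GRAMD1C (103228295) was barely expressed in WT, at 0.33, 0.23 and 0.29 FPKM from 19, 13 and 17 counts, and had 0 counts in each DKO library. Against a floor of 3 counts per library it was at least 5.32-fold lower, a bound that covers counting error only. Since it entered the test only through its WT counts, its call is given as a description.

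GRAMD2B (103244446) encodes a GRAM domain protein that lacks the sterol-binding domain of the Asters. It fell from 4.39, 4.14 and 4.07 FPKM in WT to 0.88, 1.17 and 0.73 in DKO, 22.1% of the WT level (-2.19, SE 0.18, edgeR adjusted p = 9.9e-05). Every DKO sample was far below every WT sample, with DKO3 the lowest, and the call held in all 13 alternative fits. GRAMD1B also kept its call in all 13. Among the 4 GRAMD genes, GRAMD2B made up 11.3% ± 0.613 of the summed FPKM in WT and 2.82% ± 0.936 in DKO, and GRAMD1B 6.59% ± 0.489 and 12.8% ± 0.535 (n = 3 each, SD). Permuting the 6 samples in all ways (exact, two-sided) gave p = 0.1 for each share, which is the lowest value this design permits. The summed FPKM of the family was 34.7 to 39.0 in WT and 30.2 to 39.7 in DKO, so that the groups overlapped.

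**Figure D2:**
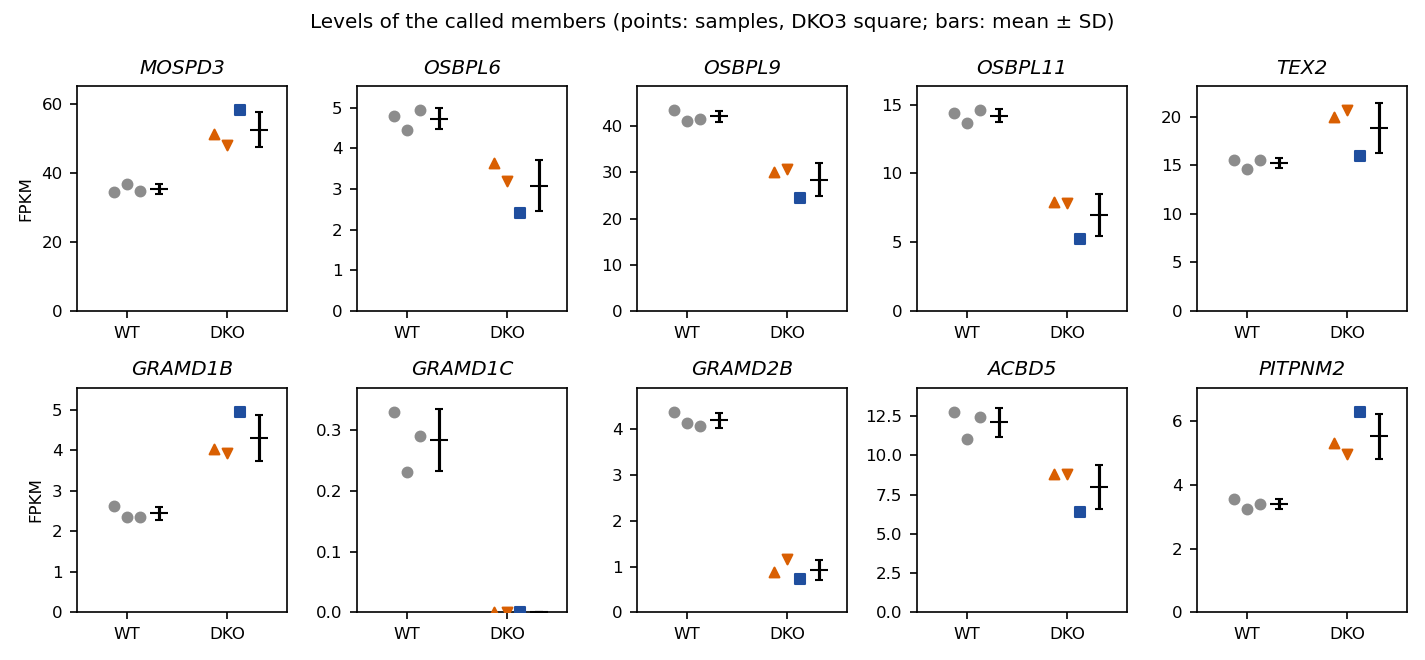
FPKM of the 10 called genes in each sample, with each axis starting at 0 (grey circles WT, orange triangles DKO1 and DKO2, blue square DKO3, black bars mean ± SD, n = 3 per group). The groups do not overlap in any panel; TEX2 comes closest, with 16.0 FPKM in DKO3 and 15.6 in the highest WT sample.

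None of the 4 VPS13 genes was called by edgeR, DESeq2 called 1 and limma on log2(FPKM + 1) called 0. These fits called 45.5%, 45.8% and 47.8% of all tested genes. An unadjusted edgeR p below 0.05 was found for 2 of the 4 genes, beside 53.6% of all tested genes. Without DKO3 edgeR called 3 of the 4 (75%, beside 74.6% of all tested genes). Mutations in each of the 4 genes cause a different neurological or developmental disease. VPS13A (103219620), whose product bridges the ER to mitochondria and lipid droplets, had 10.8, 10.3 and 11.5 FPKM in WT and 15.5, 16.0 and 5.43 in DKO. DKO1 and DKO2 were thus at 144% of the WT mean together and DKO3 at 49.9%. On the log2 scale DKO was 0.19 above WT (SE 0.35, edgeR adjusted p = 0.69), and 0.54 without DKO3 (edgeR adjusted p = 2.3e-13). VPS13C (103245525), at contacts of the ER with late endosomes and lysosomes, had 5.57, 5.86 and 6.49 FPKM in WT and 3.98, 4.68 and 1.90 in DKO (-0.74, SE 0.30, edgeR adjusted p = 0.085). All DKO samples were below WT, and it was called lower without DKO3 (-0.45, edgeR adjusted p = 5.9e-08), without DKO2 (-1.0, edgeR adjusted p = 0.044) and by DESeq2 (adjusted p = 0.031). VPS13B, a Golgi protein, had 3.35 ± 0.0924 and 2.52 ± 0.431 FPKM (-0.35, SE 0.15, edgeR adjusted p = 0.089). VPS13D, which acts at mitochondria and peroxisomes, had 5.9 ± 0.272 and 5.69 ± 0.492 (-0.02, SE 0.10, edgeR adjusted p = 0.88), and was called neither with nor without DKO3.

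At mitochondria, the outer membrane GTPases MFN1 and MFN2, of which MFN2 has also been placed on the ER, were not called. MFN2 (103225593) had 62.1, 62.5 and 62.8 FPKM in WT and 50.0, 49.7 and 67.5 in DKO. MFN1 (103221210) had 31.95, 27.3 and 32.5 FPKM in WT and 36.8, 35.2 and 20.3 in DKO. The pair thus split in opposite ways: DKO1 and DKO2 were below all WT samples for MFN2 and above them for MFN1, and DKO3 lay on the other side of WT for each. Their log2 fold changes were -0.12 (SE 0.15) and 0.04 (SE 0.21), with edgeR adjusted p-values of 0.55 and 0.89, and the sign for MFN1 turned in limma fits of the FPKM values (-0.035 and -0.037). Without DKO3 both were called, MFN2 lower (-0.32, edgeR adjusted p = 1.3e-08) and MFN1 higher (0.24, edgeR adjusted p = 0.00062). RMDN3, the mitochondrial partner of VAPB also called PTPIP51, had 21.6 ± 1.82 FPKM in WT and 26.1 ± 2.28 in DKO, with the groups apart but no call (0.29, SE 0.13, edgeR adjusted p = 0.11).

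ACBD5 (103238038), which ties peroxisomes to the VAPs, fell from 12.8, 11.1 and 12.4 FPKM in WT to 8.82, 8.80 and 6.39 in DKO (-0.68, SE 0.22, edgeR adjusted p = 0.04). Its groups did not overlap. The call was lost without WT1, WT2 or WT3 (edgeR adjusted p = 0.12, 0.082 and 0.11) and with no filter on low counts (0.053).

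Among the START and PITP genes, PITPNM2 rose and the others were not called. PITPNM1 and PITPNM2 (Nir2 and Nir3) return phosphatidylinositol to the plasma membrane after phospholipase C signalling. PITPNM2 (103239323) had 3.56, 3.26 and 3.40 FPKM in WT and 5.31, 4.97 and 6.31 in DKO, a rise of 0.72 on the log2 scale (SE 0.14, edgeR adjusted p = 0.0057) that was called in all 13 alternative fits. PITPNM1 (103216996), the more abundant gene, had 18.9, 20.3 and 17.2 FPKM in WT and 16.8, 17.3 and 24.0 in DKO, and its groups overlapped (0.09, SE 0.18, edgeR adjusted p = 0.73). STARD3 (103243537), a cholesterol transporter on late endosomes that binds the VAPs, had 16.0, 17.2 and 17.0 in WT and 14.1, 14.8 and 19.1 in DKO (-0.01, SE 0.17, edgeR adjusted p = 0.97). Without DKO3 both were called lower, PITPNM1 with its sign turned (-0.14, edgeR adjusted p = 0.039) and STARD3 at -0.21 (edgeR adjusted p = 0.014). In the sum of these 3 genes, PITPNM2 took 8.77% ± 0.672 in WT and 13.6% ± 0.981 in DKO (n = 3 each, SD, exact two-sided permutation p = 0.1). CERT1 (103223273), the ceramide carrier from ER to Golgi, had 8.43, 7.21 and 9.17 FPKM in WT and 6.70, 6.22 and 3.58 in DKO (-0.67, SE 0.30, edgeR adjusted p = 0.11). TMEM24 (103248620), an SMP protein at the plasma membrane, had 5.36, 6.10 and 6.23 in WT and 6.65, 6.69 and 8.28 in DKO (0.37, SE 0.15, edgeR adjusted p = 0.086). The groups of CERT1 and of TMEM24 did not overlap. In the fit without DKO3, which called 74.6% of all tested genes, CERT1 was called lower (-0.38, edgeR adjusted p = 2.7e-05) and TMEM24 higher (0.22, edgeR adjusted p = 0.022).

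The number of called genes differed with and without DKO3, as given above. The distance of this sample to the mean of DKO1 and DKO2 had a median size of 0.49 on the log2 CPM scale over the 35 genes, and DKO1 and DKO2 differed by at most 0.23 for any of them. DKO3 was the lowest DKO sample for 22 of the 35 genes (62.9%) and the highest for 12, beside 45.3% and 44.4% of all tested genes. It was furthest below DKO1 and DKO2 for OSBPL8 (-2.20), MOSPD2 (-1.88), MOSPD1 (-1.70), VPS13A (-1.46) and VPS13C (-1.16), and furthest above them for PITPNM1 (0.59), OSBPL5 (0.52) and STARD3 (0.52). For 5 genes (VAPA, VAPB, ESYT2, VPS13A and MFN1) DKO1 and DKO2 were above all WT samples and DKO3 below them. For 3 genes (GRAMD1A, MFN2 and STARD3) the order was the reverse. These 8 genes are 22.9% of the 35, where 13.1% of all tested genes had such an order. Across the 35 genes, the distance of DKO3 had a Spearman correlation of -0.19 with the transcript length implied by counts and FPKM, and of -0.26 across 13071 tested genes, which share their libraries and are not independent. The part of length in these values was not tested.

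**Figure D3:**
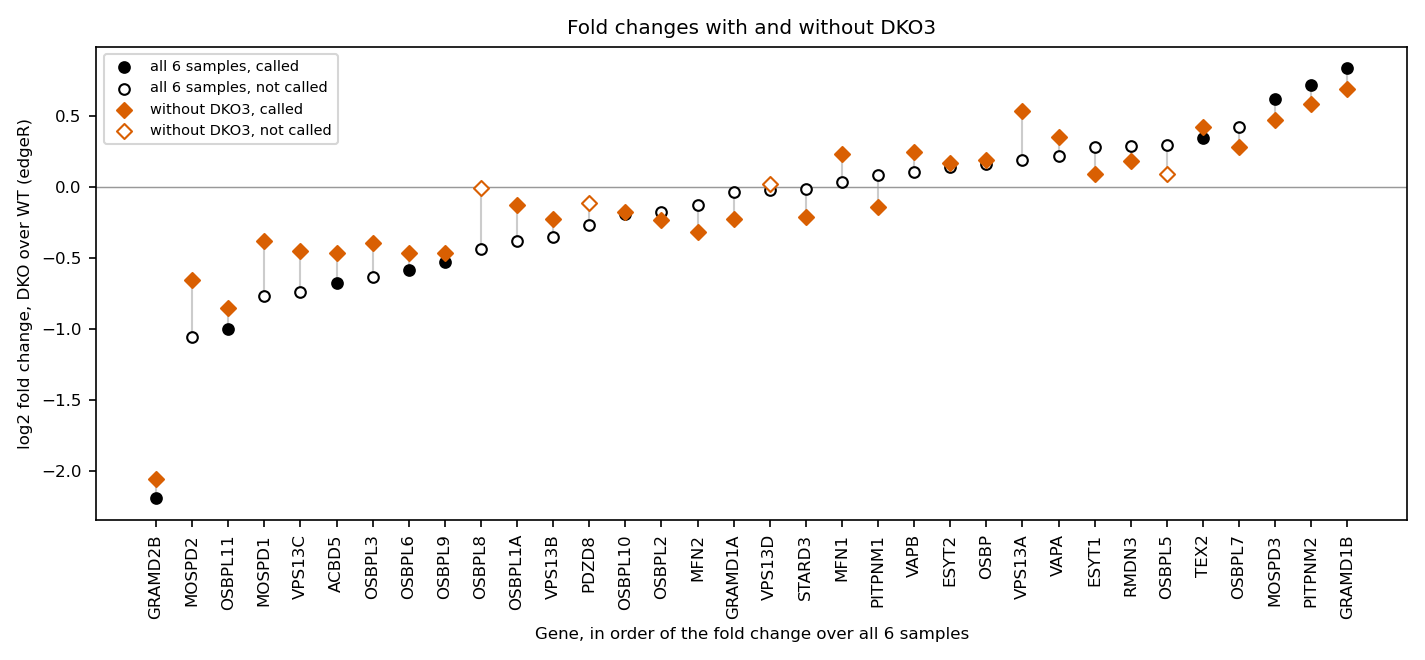
edgeR log2 fold changes of DKO over WT from all 6 samples (black circles) and without DKO3 (orange diamonds) for 34 genes, filled where called and open where not called; GRAMD1C, at 0 counts in DKO, is left out. The number called goes from 9 of these to 30, beside 45.5% and 74.6% of all tested genes. OSBPL8, VPS13D, OSBPL5 and PDZD8 are called in neither fit.

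The summed levels of the groups overlapped for 5 of the 7 families. The 11 genes of OSBP and its relatives summed to 185, 175 and 183 FPKM in WT and 154, 156 and 110 in DKO. All DKO sums were below WT, with a DKO mean at 77.4% of WT (85.6% for DKO1 and DKO2 alone). Within this sum, OSBPL11 took 7.87% ± 0.117 in WT and 4.97% ± 0.204 in DKO, and OSBP 11.1% ± 0.551 and 15.9% ± 2.08 (SD, n = 3 each). The VAP and MOSPD genes summed to 203 to 210 FPKM in WT and 257, 249 and 187 in DKO, with DKO3 below WT and the others above. The VPS13 genes were arranged in the same way, at 25.1 to 27.5 FPKM in WT and 28.2, 29.4 and 14.5 in DKO. The extended synaptotagmins, PDZD8 and TEX2 summed to 127 to 133 FPKM in WT and 137, 144 and 137 in DKO. Their mean difference of 9.81 FPKM became 1.99 when each library was scaled to the same FPKM total. For the sums whose groups did not overlap, the exact two-sided permutation p was 0.1, the smallest possible. The sums of RMDN3, MFN1, MFN2 and ACBD5 lay between 119 and 131 FPKM in all samples, and those of STARD3, PITPNM1 and PITPNM2 between 36.1 and 49.4.

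**Figure D4:**
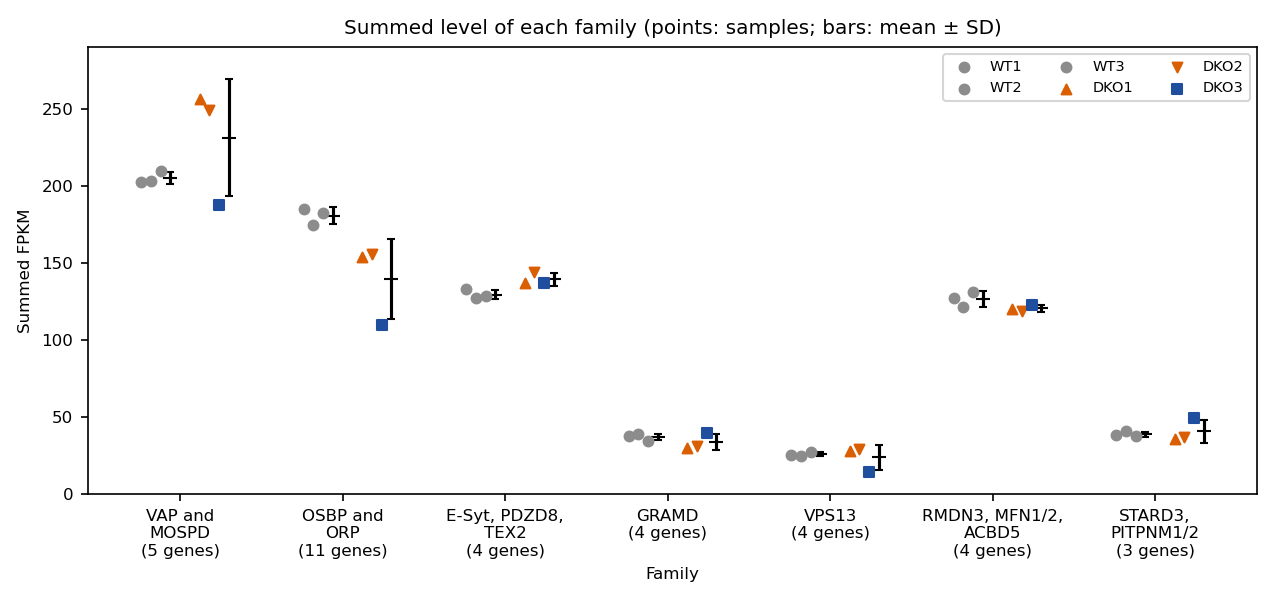
Summed FPKM of the genes of each family in each sample, with the axis starting at 0 (grey circles WT, orange triangles DKO1 and DKO2, blue square DKO3, black bars mean ± SD, n = 3 per group). The OSBP and ORP sum is lower in all 3 DKO samples (154, 156 and 110 FPKM against 175 to 185 in WT), whereas the VAP and VPS13 sums of DKO3 lie on the other side of WT from those of DKO1 and DKO2.

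A further list of 88 genes in the table holds other proteins of contact sites and lipid transfer, grouped by role. Of 86 tested, 22 were higher and 14 lower in DKO (41.9%, beside 45.5% of all tested genes). Without DKO3 these numbers were 38 and 26 (74.4%, beside 74.6%). In fits without WT1, WT2 or WT3 they fell to 12, 13 and 12 higher and 9 lower in each. These were 24.4%, 25.6% and 24.4%, beside 32.2%, 33% and 32.1% of all tested genes. In each role the called genes with the smallest adjusted p are described.

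Of 9 genes of the bridge-like proteins, which resemble VPS13, and of the scramblases at their ends, 3 fell and 0 rose. This was 33.3%, beside 45.5% of all tested genes called and 22.2% called lower. BLTP3A (listed as UHRF1BP1) fell from 4.34 ± 0.0493 to 2.93 ± 0.272 FPKM (-0.53, SE 0.11, edgeR adjusted p = 0.0062) and BLTP1 (listed as KIAA1109) from 3.07 ± 0.162 to 2.18 ± 0.312 (-0.46, SE 0.13). The ER scramblase gene VMP1, chosen after its values were seen, fell from 51.1 ± 2.08 to 30.2 ± 9.55 (-0.71, SE 0.21). BLTP1 and VMP1 were not called without WT1, WT2 or WT3, with edgeR adjusted p-values of 0.068 to 0.1 for BLTP1 and 0.075 to 0.094 for VMP1.

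Of 17 genes of other START, SEC14 and PITP proteins, 5 rose and 2 fell (41.2%, beside 45.5% of all tested genes called). STARD8, a START domain protein, rose from 1.5 ± 0.0551 to 3.58 ± 0.106 FPKM (1.30, SE 0.12, edgeR adjusted p = 0.00021), and the tocopherol transfer protein relative TTPAL from 12.3 ± 0.424 to 25.2 ± 1.54 (1.08, SE 0.10). No glycolipid or ceramide phosphate carrier of 4 was called by edgeR. At an unadjusted p below 0.05 the number was 1 (53.6% of all tested genes). DESeq2 called 0 (45.8% of all tested genes) and limma on log2(FPKM + 1) called 1 (47.8% of all tested genes). Without DKO3 edgeR called 3 of the 4 (75%, beside 74.6% of all tested genes).

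Of 11 genes that supply or remove phosphoinositides, 1 rose and 2 fell (27.3%, beside 45.5% of all tested genes called). EFR3B, which anchors the PI4P-making kinase PI4KA at the plasma membrane, fell from 2.67 ± 0.14 to 0.91 ± 0.0755 FPKM (-1.53, SE 0.15, edgeR adjusted p = 0.00021) and the kinase gene PIP5K1A from 63.1 ± 2.39 to 46.8 ± 0.529 (-0.45, SE 0.08). TTC7B, of the same PI4KA complex and chosen after its values were seen, rose by 0.40 (SE 0.11). Its call was lost in every fit that left out a library other than DKO3, with edgeR adjusted p-values of 0.055 to 0.11.

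At contacts for calcium entry, 4 of 10 genes rose and 1 fell (50%, beside 45.5% of all tested genes called). The junctophilin gene JPH2, whose product holds the ER against the plasma membrane, rose from 0.23 ± 0.0361 to 1.29 ± 0.189 FPKM (2.52, SE 0.21, edgeR adjusted p = 0.00013), and ANXA1 from 333 ± 16.1 to 613 ± 64.5 (0.93, SE 0.09). The calcium channel gene ORAI1 rose (0.98, SE 0.17) and its relative ORAI3 fell (-0.60, SE 0.11). SARAF, an inhibitor of this entry, rose (0.37, SE 0.10) but kept its call in only 3 of 13 alternative fits, and in none that left out a library other than DKO3 (edgeR adjusted p = 0.077 to 0.11). These 3 genes were chosen after their values were seen.

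Of 18 further genes of ER-mitochondria contacts, 7 rose and 2 fell (50%, beside 45.5% of all tested genes called). HSPA9, the mitochondrial chaperone that links the IP3 receptor to VDAC1, rose from 394 ± 12 to 642 ± 109 FPKM (0.74, SE 0.11, edgeR adjusted p = 0.0018) and the IP3 receptor gene ITPR1 from 1.1 ± 0.0924 to 2.02 ± 0.331 (0.90, SE 0.15). Of 13 genes of contacts with endosomes, lysosomes and peroxisomes, 3 rose and 4 fell (53.8%, beside the same 45.5%). TMCC1, an ER protein that takes part in endosome fission, fell from 4.98 ± 0.159 to 2.47 ± 0.272 (-1.0, SE 0.13, edgeR adjusted p = 0.00074) and ANXA6 rose from 30.3 to 33.0 in WT to 63.1 to 81.9 in DKO (1.18, SE 0.15). Among 4 tested genes of the same families as the 35, 2 rose (50%, beside the same 45.5%). OSBP2 rose from 0.137 ± 0.0404 to 0.407 ± 0.0231 (1.54, SE 0.23, edgeR adjusted p = 0.0016) and GRAMD4 from 6.49 ± 0.46 to 10.6 ± 0.828 (0.74, SE 0.13). The mean of OSBP2 was below 1 FPKM in both groups, so its call, and the 50% that counts it, are given as a description.

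**Figure D5:**
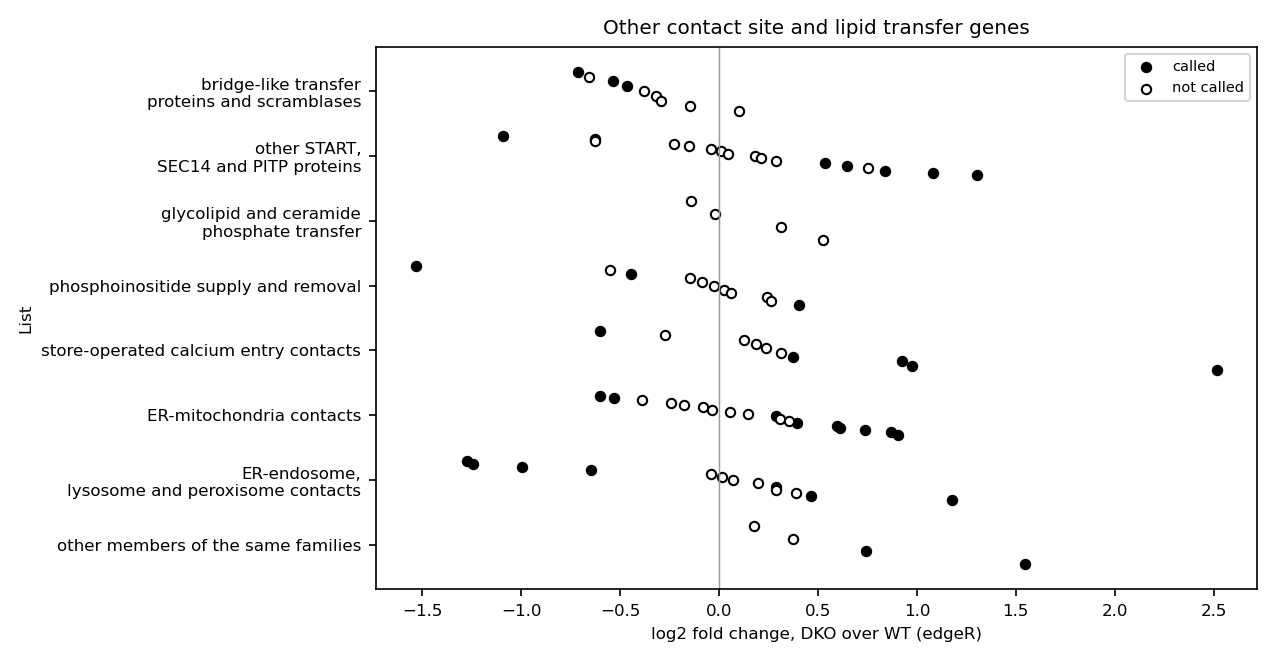
edgeR log2 fold changes of DKO over WT for the 86 tested genes of the further list, 1 point per gene, grouped by role and ordered by value within a role (filled where called). Called genes lie on both sides of 0 in most roles. The bridge-like proteins and scramblases have called genes only below 0 (3 of 9, 33.3%, beside 45.5% of all tested genes called and 22.2% called lower). JPH2 lies furthest to the right at 2.52.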

How the data were processed

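RNA of COS7 cells was extracted with TRIzol and made into libraries with an mRNA kit, per the labels' protocols. Reads were processed with HISAT and Bowtie2, per the submitters' processing notes; what counted the reads, on which build and with what strand setting, was not given in the sources used here. In 1 table the authors deposited estimated counts and FPKM per gene, in which 5.80% to 6.54% of a sample's estimated counts were not whole. A further 9 columns belong to 3 samples of no group here and were not used.

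Estimated counts were rounded and tested with edgeR 4.0.16 (quasi-likelihood, TMM scaling, filterByExpr with a minimum count of 10, R 4.3.3). P-values were adjusted by the Benjamini-Hochberg method over 13094 genes, and a gene was called at an adjusted p below 0.05. SE was computed as the absolute log2 fold change over the square root of F. FPKM values are the authors' and served for levels, sums, shares and overlap. Exact two-sided permutation tests over the 6 samples were used for sums and shares. Alternatives were leaving out each library, a replicate block, RLE scaling, no filter, DESeq2 1.42.0, and limma 3.58.1 on log2(FPKM + 1), on log2(FPKM + 0.1) and on genes with at least 1 FPKM in 3 samples. Family sums were also rescaled to equal FPKM totals.

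Values are given in every sample for called genes and for the 2 most abundant genes of each family. In each role of the further list the 2 called genes with the smallest adjusted p are named. The 35 genes and all lists were chosen with earlier results of these data known. Of the 35 gene IDs, 34 matched the RefSeq annotation, which was used for gene order only; sequences and coordinates were not used here.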

Additional observations from a re-analysis of the deposited data

How the results depend on the processing

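With 1 library left out, the number of the 35 genes called higher was 2 to 13 and lower 4 to 18 (4 and 6 with all 6 samples), and of the further list 12 to 38 and 9 to 26 (22 and 14). The share called was 17.1% to 88.6%, 24.4% to 74.4% for the further list, and 32.1% to 74.6% for all tested genes. The highest numbers came without DKO3 and the lowest without a WT library; the cause was not tested. A replicate block gave 3 higher and 4 lower of the 35 genes (20% called) and 13 higher and 12 lower of the further list (29.1%), beside 34.3% of all tested genes, and the calls of TEX2, OSBPL6 and ACBD5 were lost (adjusted p = 0.14, 0.059 and 0.059). Deviations from the group means had correlations of 0.02, -0.28 and -0.29 between samples with the same number (13094 genes). Between samples with different numbers they were -0.26 to 0.31. With 3 samples per group and DKO3 apart from its group, this check cannot show whether the numbers pair the samples. DESeq2 called 3 of the 35 genes higher and 9 lower (34.3%, beside 45.8% of all tested genes). CERT1 and TMEM24 are among the 37 names listed. Counting them, a choice made after seeing the data, left 4 higher and 6 lower, beside 45.5% of all tested genes called. Signs turned for 6 genes not called with all 6 samples, of which all but VPS13D were called without DKO3: with 1 library left out, log2 fold changes were -0.22 to 0.060 for GRAMD1A, -0.10 to 0.24 for MFN1, -0.14 to 0.19 for PITPNM1, -0.21 to 0.085 for STARD3, -0.036 to 0.54 for VPS13A and -0.069 to 0.026 for VPS13D. By limma, MFN1 was at -0.037 on log2(FPKM + 0.1) and -0.035 on log2(FPKM + 1) with either filter. At equal FPKM totals the summed difference (DKO minus WT) was 1.99 FPKM for the extended synaptotagmins and other SMP proteins (9.81 as deposited) and -13.0 for the mitochondrial and peroxisomal genes (-6.18 as deposited). Depth limits GRAMD1C, which had 13 to 19 counts in WT. In the further list, the means of OSBP2 in both groups and of JPH2 in WT were also below 1 FPKM.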

Other observations

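The genes next to the 10 called genes in the RefSeq gene order (assembly mChlSab1.0.hap1, whose relation to the authors' build is not known) were looked at after the values had been seen. Of 20 neighbours 14 were tested and 6 were called by edgeR (42.9%, beside 45.5% of all tested genes), 4 in the direction of the called gene and 2 in the other. None of the 20 was one of the 35 genes. Beside GRAMD2B, ZNF608, a zinc finger gene, fell from 5.37 ± 0.232 to 0.0333 ± 0.0153 FPKM (SD, n = 3 each), and ALDH7A1, an aldehyde dehydrogenase gene, rose from 30.0 ± 0.807 to 70.9 ± 2.86, a log2 fold change of 1.29 (SE 0.11). Beside OSBPL11, the sorting nexin gene SNX4 fell from 44.9 ± 2.07 to 17.2 ± 5.71 FPKM (-1.35, SE 0.23). Beside OSBPL9, the endocytic adaptor gene EPS15 fell (-0.84, SE 0.20), and beside TEX2 the ER stress sensor gene ERN1 rose (0.52, SE 0.14). Beside GRAMD1C, whose call is only a description, ZDHHC23 rose (0.76, SE 0.21) and is counted among the 2 in the other direction.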
